A study of Rattus norvegicus with 6 samples.

Results

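The genes described here encode the receptors for acetylcholine, serotonin, dopamine, noradrenaline and adrenaline, and histamine in cultured rat hippocampal neurons. They were picked out by gene symbol (Htr, Drd, Adra1 or Adra2, Adrb, Chrm, Chrn and Hrh followed by the subtype letter or number), and 52 of the 17066 genes in the deposited table met that rule. The set itself was chosen with earlier results of these data known. RNA-seq was performed on 6 libraries of hippocampal neurons prepared from E18 Sprague-Dawley rat embryos. All cultures carried a lentivirus, given at DIV 5 or 6, and were harvested at DIV 14. The EGFP control group received virus expressing EGFP alone, the CCNY-WT group received CCNY-WT-EGFP (overexpression of cyclin Y), and the CCNY-shRNA group received CCNY-shRNA-EGFP (knockdown of cyclin Y), with 2 libraries a group. The control virus thus differed from the knockdown virus by the absence of an shRNA, and the labels name a single shRNA.

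Acetylcholine acts on muscarinic receptors, which signal through G proteins, and on nicotinic receptors, which are cation channels assembled from separately encoded subunits. Serotonin, dopamine, noradrenaline, adrenaline and histamine act almost entirely on G protein-coupled receptors, apart from the serotonin-gated channel built from Htr3a. Receptors coupled to Gs raise cyclic AMP, those coupled to Gi or Go lower it and open potassium channels, and those coupled to Gq act through phospholipase C. In the hippocampus these transmitters arrive on axons from the septum, brainstem and hypothalamus and set the excitability and plasticity of pyramidal cells and interneurons, so a dissociated culture holds the receptors without most of the neurons that supply the ligands.

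The values were FPKM, fragments scaled to transcript length and to the mapped total of the library, so that levels of different genes can be set side by side. The number of reads per library was not recoverable from the table. Relative depths read from the FPKM steps of low genes ran from 0.818 to 1.33 times that of EGFP replicate 1. Ccny stood at 43.1 and 42.3 FPKM with EGFP, 108 and 109 with CCNY-WT and 5.98 and 6.19 with CCNY-shRNA, in the direction of each label. Neuronal markers were abundant (summed FPKM of 6 genes between 2915 and 3076), astrocyte markers were present (5 genes, 242 to 312, lowest in CCNY-shRNA replicate 1), and oligodendrocyte lineage markers were low (7 genes, 37.2 to 47.6). Microglial markers summed to at most 0.389 FPKM over 6 genes, with Aif1 and Cx3cr1 listed at 0. Of the vascular and meningeal markers Dcn and Lum alone exceeded 1 FPKM, and the list summed to between 63.4 and 75.5. Markers of the neurons that make the ligands were low: the dopaminergic or noradrenergic list summed to at most 0.844 FPKM, the serotonergic list to at most 0.667, and the cholinergic list to between 1.14 and 2.41. Nearly all of the cholinergic sum was the choline transporter Slc5a7 (1.08 to 2.41), and Chat, which makes acetylcholine, reached 0.0609. Because the libraries are bulk RNA, fewer cells of a type and less RNA per cell cannot be told apart in any value below.

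Of the 52 receptor genes, 27 had a mean of at least 1 FPKM over the 6 libraries, 17 lay between 0 and 1, and 8 were listed at 0 in every library. The same 27 passed the filter for testing (at least 1 FPKM in 2 or more libraries). Chrna7, Chrnb2 and Chrm1 were the 3 highest, and together they made up between 53.9% and 59% of the summed FPKM of all receptor genes in each library. In EGFP their means exceeded those of 89.7%, 89.3% and 88.6% of all listed genes. In EGFP the libraries of Chrnb2 overlapped those of both others, while both Chrna7 libraries lay above both Chrm1 libraries. Along the order of the 27 genes by EGFP mean, the libraries of 9 of the 26 neighbouring pairs did not overlap in EGFP, and 3 pairs stayed apart over all 6 libraries: Chrm1 above Chrm3, Chrm3 above Htr1a, and Chrna5 above Adra1b. The plot of levels by transmitter shows these steps.

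**Figure D1:**
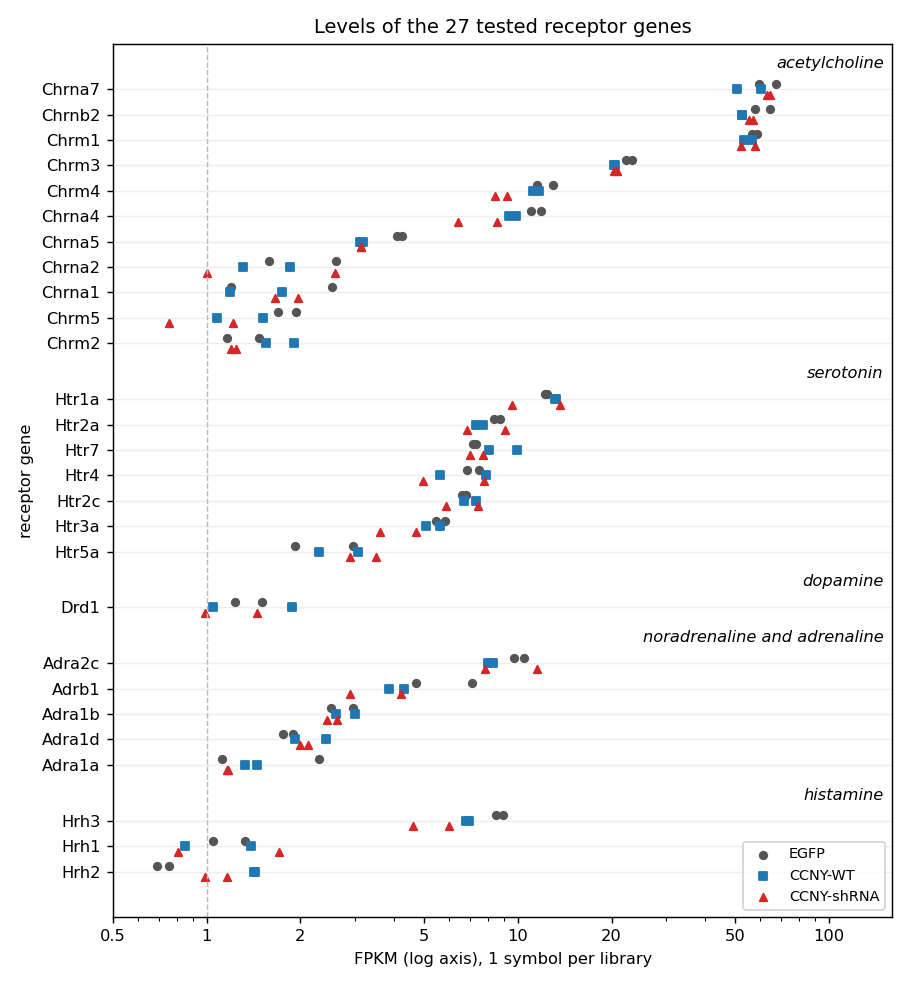
FPKM of the 27 tested receptor genes on a log axis, grouped by transmitter, with 1 symbol per library (circles EGFP, squares CCNY-WT, triangles CCNY-shRNA) and a dashed line at 1 FPKM. Chrna7, Chrnb2 and Chrm1 lie above 50 FPKM in every library, and the single tested dopamine receptor, Drd1, lies between 0.985 and 1.88.

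Among the 16 nicotinic subunits, 6 were tested. Chrna7, the subunit that forms calcium-permeable homomeric receptors, stood at 67.8 and 59.8 FPKM with EGFP, 60.3 and 50.5 with CCNY-WT and 63.2 and 64.6 with CCNY-shRNA. Chrnb2, the common partner of the alpha subunits in heteromeric brain receptors, stood at 57.8 and 64.6 with EGFP, 52.6 and 52.5 with CCNY-WT and 57.2 and 55.4 with CCNY-shRNA. Its partner Chrna4, with which it forms the high-affinity nicotine binding site of the brain, was several-fold lower, at 11 and 11.9 with EGFP, 9.89 and 9.34 with CCNY-WT and 6.43 and 8.60 with CCNY-shRNA. The Chrna7 libraries overlapped among the groups, whereas all 4 Chrna4 libraries of the other groups lay below both EGFP libraries. Chrna5, an accessory subunit of those receptors, stood at 4.09 and 4.24 with EGFP, 3.18 and 3.11 with CCNY-WT and 3.12 and 3.14 with CCNY-shRNA. Chrna2, another neuronal alpha subunit, gave 2.6 and 1.58, then 1.31 and 1.85, then 2.58 and 1.0 FPKM in the same group order. Chrna1, the alpha subunit of muscle, gave 2.52 and 1.2, 1.75 and 1.19, and 1.97 and 1.66. Replicates of Chrna1 and Chrna2 thus differed as much as the groups, and Chrna1 in EGFP (1.07 on the log2 scale) and Chrna2 in CCNY-shRNA (1.37) were the widest replicate gaps of any tested receptor gene in those groups.

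All 5 muscarinic receptors were tested. Chrm1, the main Gq-coupled type of forebrain pyramidal cells, stood at 56.6 and 58.7 FPKM with EGFP, 53.3 and 56.6 with CCNY-WT and 52.2 and 57.7 with CCNY-shRNA. Chrm3, also Gq-coupled, stood at 22.2 and 23.3, 20.4 and 20.5, and 20.8 and 20.3. Chrm4, a Gi-coupled type, stood at 13 and 11.5, 11.2 and 11.7, and 8.44 and 9.21. For Chrm1 the groups overlapped, for Chrm3 both other groups lay below EGFP, and for Chrm4 only the CCNY-shRNA libraries lay below all others. The remaining types were near the floor of 1 FPKM: Chrm5 at 1.93 and 1.70 with EGFP, 1.52 and 1.08 with CCNY-WT and 0.756 and 1.21 with CCNY-shRNA. Chrm2, the other Gi-coupled type, stood at 1.16 and 1.47, 1.55 and 1.91, and 1.2 and 1.24.

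Serotonin receptors numbered 14, of which 7 were tested. Htr1a, the Gi-coupled receptor that hyperpolarises pyramidal cells, was the highest, at 12.4 and 12.2 FPKM with EGFP, 13.2 and 13.3 with CCNY-WT and 13.7 and 9.56 with CCNY-shRNA. Htr2a and Htr2c, both Gq-coupled, were of similar level: Htr2a at 8.76 and 8.36, 7.35 and 7.70, and 6.84 and 9.07, and Htr2c at 6.83 and 6.59, 6.69 and 7.32, and 5.89 and 7.43. In each of these genes the CCNY-shRNA libraries lay on both sides of the EGFP values. The Gs-coupled Htr7 stood at 7.33 and 7.18, 8.06 and 9.92, and 7.70 and 7.02. Htr4, also Gs-coupled, stood at 6.86 and 7.48, 7.90 and 5.61, and 7.79 and 4.95. Htr3a, which encodes the subunit of the serotonin-gated channel and marks a class of interneurons, stood at 5.45 and 5.84, 5.64 and 5.05, and 3.61 and 4.72. Of these, Htr3a was the gene whose CCNY-shRNA libraries both lay below every other library. Htr5a, a Gi-coupled type, stood at 2.95 and 1.92, 2.30 and 3.06, and 3.49 and 2.89, with overlapping groups.

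Of the 5 dopamine receptors the Gs-coupled Drd1 alone was tested, at 1.5 and 1.23 FPKM with EGFP, 1.05 and 1.88 with CCNY-WT and 1.45 and 0.985 with CCNY-shRNA. Adra2c, a Gi-coupled receptor for noradrenaline and the highest of the 8 adrenoceptors, stood at 10.5 and 9.72, 8.02 and 8.30, and 11.5 and 7.86. Adrb1, the Gs-coupled beta receptor of forebrain neurons, stood at 4.71 and 7.10, 4.29 and 3.86, and 2.88 and 4.20. Adrb1 thus varied widely between the EGFP libraries, and all 4 libraries of the other groups lay below both. The Gq-coupled alpha receptors were lower: Adra1b at 2.95 and 2.5, 2.6 and 3.00, and 2.63 and 2.43, Adra1d at 1.76 and 1.89, 1.92 and 2.41, and 2.0 and 2.11, and Adra1a at 2.30 and 1.12, 1.33 and 1.45, and 1.16 and 1.17. Groups overlapped for Adra1a and Adra1b, while both other groups lay above EGFP for Adra1d.

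Histamine receptors were led by Hrh3, the Gi-coupled receptor that restrains release of histamine and other transmitters from axon terminals. Hrh3 stood at 8.48 and 8.93 FPKM with EGFP, 6.94 and 6.81 with CCNY-WT and 4.59 and 5.99 with CCNY-shRNA. The 3 groups did not overlap, with EGFP highest and CCNY-shRNA lowest. Hrh1, the Gq-coupled type, stood at 1.05 and 1.33, 1.39 and 0.848, and 0.806 and 1.71. The Gs-coupled Hrh2 stood at 0.757 and 0.693, 1.43 and 1.42, and 1.16 and 0.984, with EGFP below both other groups.

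Summed over all 52 genes, receptor FPKM was 330 and 329 with EGFP, 301 and 296 with CCNY-WT and 300 and 301 with CCNY-shRNA, and the 2 groups with altered CCNY lay below EGFP. Nicotinic subunits summed to 147 and 145, 131 and 120, and 136 and 136, and muscarinic receptors to 94.9 and 96.7, 87.9 and 91.8, and 83.4 and 89.6. Both acetylcholine sums were thus below EGFP in all 4 other libraries. Adrenoceptors summed to 22.3 and 22.3, 18.3 and 19.3, and 20.3 and 18.1, and histamine receptors to 10.3 and 11, 9.77 and 9.08, and 6.55 and 8.69. Serotonin receptors, at 52.1 and 51.9, 53 and 53.5, and 51.3 and 47.5, lay above EGFP in CCNY-WT and below it in CCNY-shRNA. Dopamine receptors, at 2.55 and 1.72, 1.61 and 2.38, and 2.02 and 1.57, overlapped among all groups. No test was made on the sums.

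**Figure D2:**
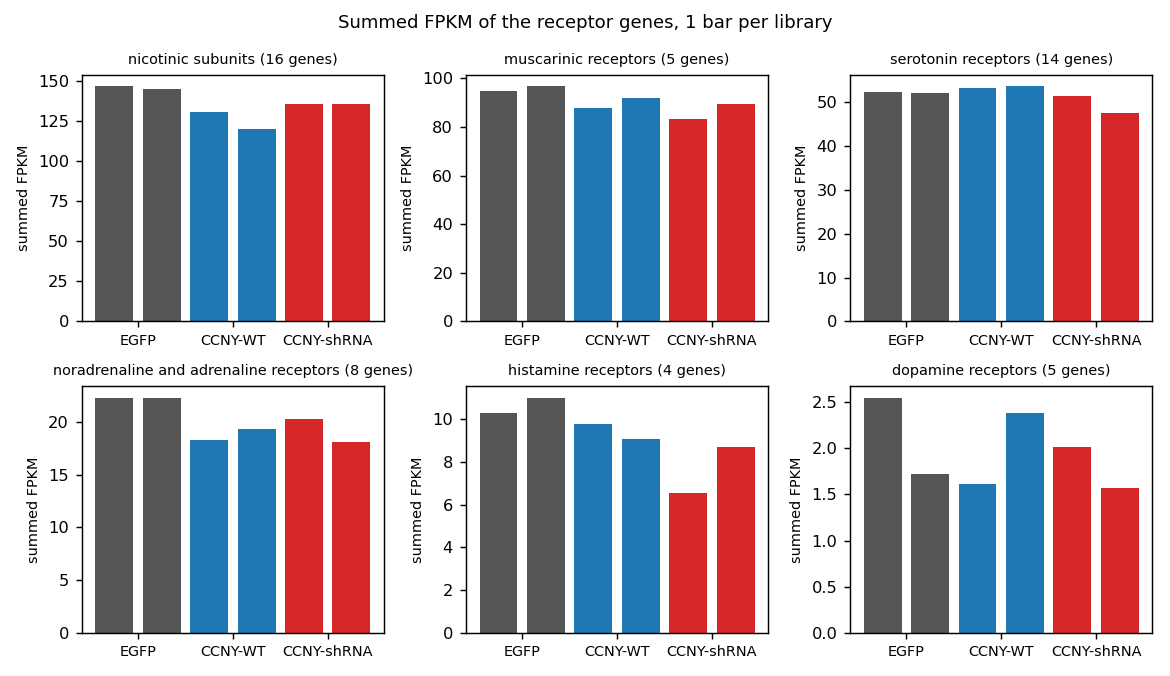
Summed FPKM of each group of receptor genes, 1 bar per library, with 2 bars each for EGFP (grey), CCNY-WT (blue) and CCNY-shRNA (red), every axis starting at 0. The nicotinic, muscarinic, adrenoceptor and histamine sums are below EGFP in all 4 other libraries, and the dopamine sums overlap.

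The comparison of CCNY-shRNA with EGFP asked which receptor genes differed when cyclin Y was knocked down. By limma on log2 of FPKM, with values under 1 raised to 1, 0 of the 27 tested receptor genes passed an adjusted p of 0.05, while 0.746% of all 10188 tested genes did (17 higher and 59 lower). At an unadjusted p under 0.05, 7 of the 27 were lower (Hrh3, Chrm4, Chrna4, Chrm5, Adrb1, Chrna5 and Htr3a) and 0 were higher, where 9.36% of all tested genes were lower and 9.2% higher. Leaving out either EGFP library reduced the number of receptor genes that were lower, and that over all tested genes too. The number of higher receptor genes also moved without EGFP replicate 1. Both CCNY-shRNA libraries lay below both EGFP libraries in 9 receptor genes (those 7 with Chrm3 and Chrnb2), against 24.5% of all tested genes, and above them in 2 (Adra1d and Hrh2), against 23.9%. Hrh2 was under 1 FPKM in both EGFP libraries and passed the filter only through the other groups. The median log2 change of the 27 genes was -0.12, with 20 of 27 below 0, and that of all tested genes was 0.00, with 49.8% below 0. By family, 4 of the 11 tested acetylcholine receptor genes, 1 of 7 serotonin, 1 of 5 adrenoceptor and 1 of 3 histamine receptor genes were lower at that unadjusted level. By coupling, these were 3 of 7 ion channel subunits, 2 of 6 Gi-coupled, 1 of 9 Gq-coupled and 1 of 5 Gs-coupled receptors.

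Hrh3 averaged 8.71 ± 0.315 FPKM in EGFP and 5.29 ± 0.989 in CCNY-shRNA (mean ± SD, n = 2), a log2 change of -0.73 (SE 0.159, limma adjusted p = 0.0828). Chrm4 averaged 12.3 ± 1.07 and 8.83 ± 0.547, a log2 change of -0.48 (SE 0.118, limma adjusted p = 0.101). For Chrna4 the means were 11.5 ± 0.631 and 7.52 ± 1.54, a log2 change of -0.63 (SE 0.156, limma adjusted p = 0.102). These 3 genes had the smallest p-values of the receptor genes, and their libraries did not overlap between the groups. Adrb1 averaged 5.90 ± 1.69 and 3.54 ± 0.935, a log2 change of -0.73 (SE 0.253, limma adjusted p = 0.182). Chrm5 gave 1.82 ± 0.165 and 0.982 ± 0.319, a log2 change of -0.72 (SE 0.245, limma adjusted p = 0.178), in which the value of 0.756 in CCNY-shRNA replicate 1 was raised to 1. Chrna5 gave 4.17 ± 0.104 and 3.13 ± 0.0158, a log2 change of -0.41 (SE 0.155, limma adjusted p = 0.21), and Htr3a gave 5.64 ± 0.275 and 4.17 ± 0.787, a log2 change of -0.45 (SE 0.176, limma adjusted p = 0.226). In every one of these genes the difference between means exceeded the difference between replicates except in Adrb1, where the EGFP replicates were as far apart as the groups. Without EGFP replicate 2 the Adrb1 change was -0.44, and without CCNY-shRNA replicate 1 it was -0.46 and that of Htr3a was -0.26.

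**Figure D3:**
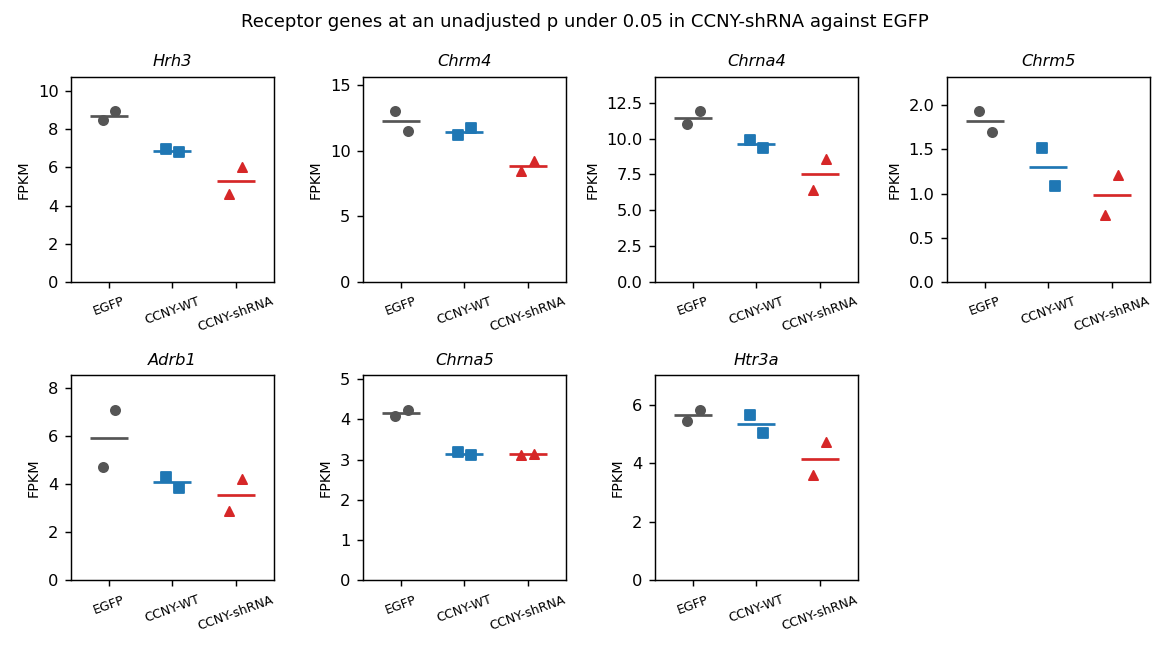
FPKM by library of the 7 receptor genes at an unadjusted p under 0.05 for CCNY-shRNA against EGFP, with points for the 2 libraries of each group, a line at their mean and every axis starting at 0. All CCNY-shRNA points lie below the EGFP points of the same gene, and the 2 EGFP points of Adrb1 are 4.71 and 7.10.

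Marker levels were compared between the same groups. Gad2, the synaptic form of the enzyme that makes GABA, fell from 170 and 173 FPKM in EGFP to 129 and 129 in CCNY-shRNA, a log2 change of -0.41 (SE 0.0494, limma adjusted p = 0.0226), and stood at 176 and 181 in CCNY-WT. That call was lost on leaving out any one of the EGFP or CCNY-WT libraries (adjusted p = 0.0623 to 0.232). The whole GABAergic list (Gad1, Gad2, Slc32a1) summed to 485 and 498 with EGFP, 508 and 518 with CCNY-WT and 433 and 434 with CCNY-shRNA, with 1 of 3 called. Glutamatergic markers summed to between 1434 and 1527, with 0 of 4 called and 2 lower at an unadjusted p under 0.05 (Neurod6 and Camk2a). Astrocyte markers summed to 289 and 304, 312 and 310, and 242 and 308, with 0 of 5 called and 1 lower at that unadjusted level (Slc1a3). The neuron list (6 genes) had a median log2 change of 0.00, with 3 genes lower and 3 higher. Over all marker lists, 6 of 26 tested genes were lower at that level and 1, the neuron marker Tubb3 (log2 change 0.16), was higher. Of all tested genes 9.36% were lower and 9.2% higher, and 0.746% were called. The median log2 change of the marker genes was -0.12, the same median as that of the receptor genes. The part of these markers in the receptor values was not tested. Among the receptor genes named above, Chrm4 overlaps Mdk, Chrm5 overlaps Aven and Chrna4 overlaps Col20a1 in the RefSeq annotation of GRCr8, and the strand setting of the counting is not given in the sources used here. Mdk stood at 19.9 and 32.9, 17 and 22.3, and 17.2 and 24.1 FPKM in the same group order, and Aven at 6.18 and 6.90, 4.68 and 6.43, and 6.38 and 7.03, with overlapping groups in both.

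The upstream sequences of Hrh3, Chrm4 and Chrna4 are given because these genes had the smallest p-values in the knockdown. Each is the 250 bases before the annotated start in RefSeq (GRCr8), read 5′ to 3′ on the strand of the gene, at chr3:187574260-187574509 (minus strand) for Hrh3, chr3:98348830-98349079 (plus strand) for Chrm4 and chr3:188534527-188534776 (minus strand) for Chrna4. Capitals mark GC boxes (GGGCGG or its reverse complement CCGCCC) and CCAAT boxes (CCAAT or its reverse complement ATTGG).
Hrh3: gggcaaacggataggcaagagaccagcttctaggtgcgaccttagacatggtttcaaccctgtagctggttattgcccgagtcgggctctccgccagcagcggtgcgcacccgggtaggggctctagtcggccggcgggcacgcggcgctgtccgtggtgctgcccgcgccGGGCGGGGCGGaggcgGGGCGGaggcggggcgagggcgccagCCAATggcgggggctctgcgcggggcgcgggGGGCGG
Chrm4: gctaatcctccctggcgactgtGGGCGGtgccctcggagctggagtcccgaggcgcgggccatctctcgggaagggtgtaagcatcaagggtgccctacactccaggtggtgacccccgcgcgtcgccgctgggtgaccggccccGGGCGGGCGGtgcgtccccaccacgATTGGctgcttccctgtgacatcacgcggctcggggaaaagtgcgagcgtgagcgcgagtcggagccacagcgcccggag
Chrna4: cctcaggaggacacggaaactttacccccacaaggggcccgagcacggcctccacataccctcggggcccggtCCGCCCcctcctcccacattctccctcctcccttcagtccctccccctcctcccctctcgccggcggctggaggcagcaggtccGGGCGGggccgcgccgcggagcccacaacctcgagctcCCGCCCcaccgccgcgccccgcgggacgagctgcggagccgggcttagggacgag
Hrh3 held 4 GC box matches, Chrm4 and Chrna4 3 each, some of them overlapping by 1 or more bases, and Hrh3 and Chrm4 held 1 CCAAT match each. A GC box occurred in 30.5% of the 33469 windows of this length in the table, in 20 of the 40 receptor genes with a window (50%), and in 4 of the 5 windows among the 7 lower genes (Chrm4, Chrna4, Chrna5 and Hrh3). A CCAAT box occurred in 34% of all windows, in 8 of the 40 (20%), and in 3 of those 5. A TATA box (TATAAA or TTTATA) occurred in 12.9% of all windows and in 2 of the 40, and a cyclic AMP response element (TGACGTCA) in 1.59% and in 0 of the 40. The 33469 windows outnumber the 17066 listed genes and were counted per window, while receptor genes were counted per gene. The shares therefore do not compare like sets, and no enrichment was tested. These matches describe letters only and no binding was measured.

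The comparison of CCNY-WT with EGFP asked the same of cyclin Y overexpression, with the same EGFP libraries as control, so that the 2 comparisons are not independent. Here too 0 of the 27 receptor genes passed an adjusted p of 0.05 by limma, and 0.00982% of all tested genes did, which was Ccny alone. At an unadjusted p under 0.05, 2 were lower (Chrnb2 and Chrna5) and 1 was higher (Hrh2), where 3% of all tested genes were lower and 3.83% higher. Both EGFP values of Hrh2 were under 1 FPKM, so it passed the filter only through the groups where it was higher. Its count as a higher gene is therefore no independent support for a rise. The counts rested on few libraries. They moved when single libraries were left out, also a CCNY-shRNA library, which enters through the shared spread. The counts over all tested genes moved as well. CCNY-WT libraries lay below EGFP in 9 receptor genes (Adra2c, Adrb1, Chrm3, Chrm5, Chrna4, Chrna5, Chrnb2, Hrh3 and Htr2a), against 19.2% of all tested genes. They lay above EGFP in 5 (Adra1d, Chrm2, Hrh2, Htr1a and Htr7), against 20.3%. The median log2 change was -0.11, with 18 of 27 below 0, and that of all tested genes was 0.00, with 48.6% below 0.

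Chrnb2 averaged 61.2 ± 4.86 FPKM in EGFP and 52.5 ± 0.0803 in CCNY-WT, a log2 change of -0.22 (SE 0.0684, limma adjusted p = 0.725), which was -0.30 without EGFP replicate 1 and -0.14 without EGFP replicate 2. Chrna5 averaged 4.17 ± 0.104 and 3.15 ± 0.0438, a log2 change of -0.41 (SE 0.155, limma adjusted p = 0.725), beside the -0.41 of the knockdown. Hrh2 averaged 0.725 ± 0.0454 and 1.43 ± 0.00771, a log2 change of 0.51 (SE 0.208, limma adjusted p = 0.725) with both EGFP values raised to 1. With log2(FPKM + 0.1) in place of that floor the Hrh2 change was 0.89. All 6 tested nicotinic subunits were lower on average in CCNY-WT (median -0.26) and 4 of 6 in CCNY-shRNA (median -0.23). Of the other genes lower in the knockdown, Hrh3 gave a log2 change of -0.34 (SE 0.159, limma adjusted p = 0.743), Adrb1 -0.51 (SE 0.253, limma adjusted p = 0.761) and Chrm5 -0.50 (SE 0.245, limma adjusted p = 0.761) in CCNY-WT. Chrna4 gave -0.26 (SE 0.156, limma adjusted p = 0.802), Chrm4 -0.10 (SE 0.118, limma adjusted p = 0.9) and Htr3a -0.08 (SE 0.176, limma adjusted p = 0.956), and none of these 6 genes passed the threshold. The Adrb1 value ranged from -0.80 without EGFP replicate 1 to -0.21 without EGFP replicate 2, that of Chrm4 from -0.19 without EGFP replicate 2 to -0.01 without EGFP replicate 1, and that of Chrm5 from -0.75 without CCNY-WT replicate 1 to -0.26 without CCNY-WT replicate 2.

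**Figure D4:**
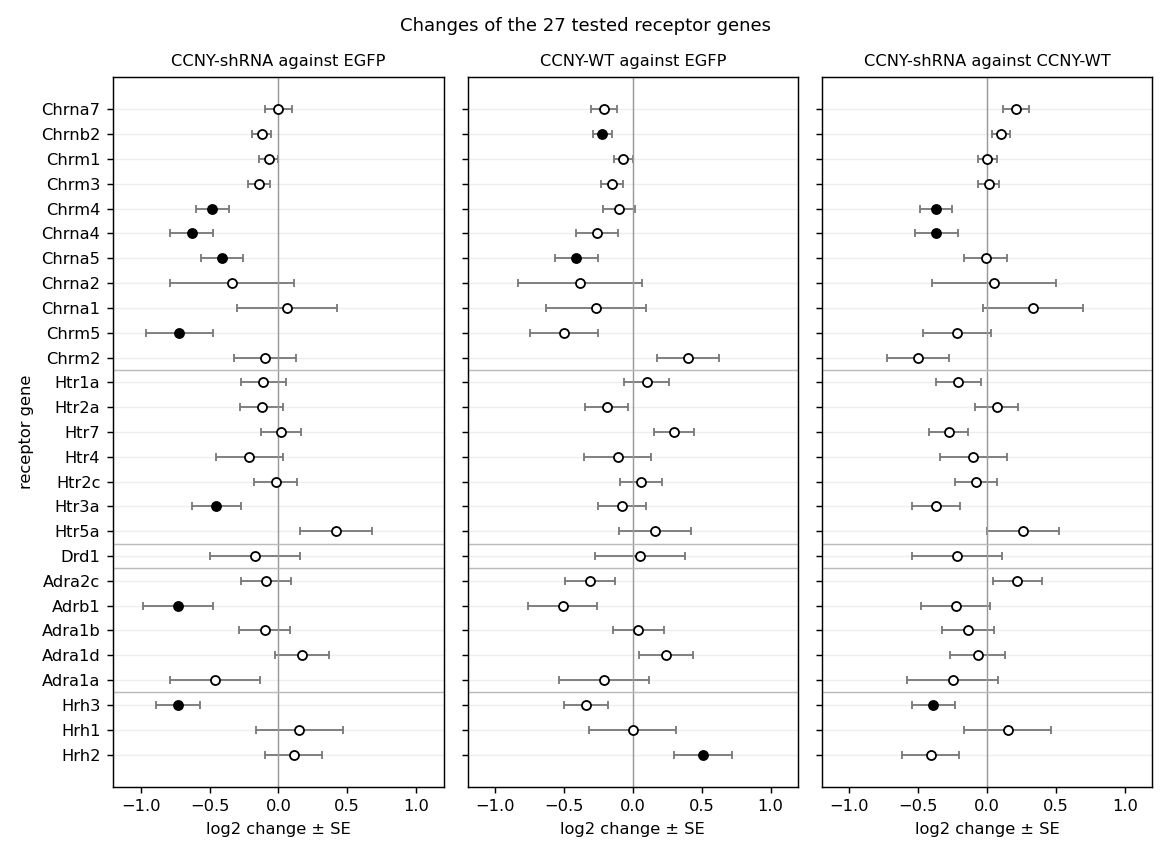
Log2 change of each tested receptor gene with its standard error from limma, in CCNY-shRNA against EGFP (left), CCNY-WT against EGFP (middle) and CCNY-shRNA against CCNY-WT (right), in the order of transmitter and EGFP level, with filled points at an unadjusted p under 0.05. All 7 filled points on the left lie below 0, and no point in any panel passed the adjusted threshold.

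Compared directly with CCNY-WT, 0 of the 27 receptor genes in CCNY-shRNA passed an adjusted p of 0.05 by limma, and 0.216% of all tested genes did (2 higher and 20 lower). Chrm4, Hrh3 and Chrna4 were lower at an unadjusted p under 0.05 and 0 were higher, where 7.12% of all tested genes were lower and 5.05% higher. With the libraries scaled to one upper quartile, 355 of all genes were higher and 794 lower at that level in place of 514 and 725. Chrm4 gave a log2 change of -0.37 (SE 0.118, limma adjusted p = 0.293), Hrh3 -0.39 (SE 0.159, limma adjusted p = 0.386) and Chrna4 -0.37 (SE 0.156, limma adjusted p = 0.403). The CCNY-shRNA libraries of each of these 3 genes lay below those of CCNY-WT, which their choice by p in this comparison makes likely. The share of all tested genes without overlap was not counted here. Without CCNY-shRNA replicate 1 the Hrh3 and Chrna4 changes were -0.20 and -0.16, and without CCNY-shRNA replicate 2 they were -0.58 and -0.58. The number of lower receptor genes fell without CCNY-WT replicate 2, CCNY-shRNA replicate 1 or either EGFP library. Over all tested genes the number lower fell in these cases too, except without CCNY-shRNA replicate 1. The median log2 change of the 27 genes was -0.10. The 2 comparisons of CCNY-shRNA share those libraries, and the values are therefore given side by side only.

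The 25 receptor genes not tested lay at or near 0. Chrna6, Chrna10, Chrnb3, Chrnd, Hrh4, Htr1d, Htr2b and Htr6 were listed at 0 in every library, as was Rpl36, a ribosomal protein gene that every cell uses, so a listed 0 can also be a missing estimate. Among the 17 others, Chrna3 (0.468 to 1.06 FPKM), Htr1b (0.185 to 1.27), Htr5b (0.302 to 1.15) and Htr1f (0.139 to 1.35) exceeded 1 FPKM in a single library each. Chrnb1 (0.16 to 0.661), Drd2 (0.148 to 0.784), Chrnb4 (0 to 0.516), Drd5 (0 to 0.331), Drd4 (0 to 0.273), Adrb3 (0 to 0.293), Chrna9 (0 to 0.176), Chrne (0 to 0.144) and Adra2b (0 to 0.0928) did not. Chrng, Drd3 and Htr3b were above 0 in 1 library each, at 0.0934, 0.098 and 0.11 FPKM. The subunits of the muscle receptor and of the autonomic ganglion (Chrna3 with Chrnb4) were thus mostly in this group.

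For 23 of the 44 receptor genes above 0, the FPKM values in the 6 libraries were whole multiples of a common step within 0.02 fragments, and the smallest whole numbers that did so were taken as fragments. Over all 3046 genes whose highest FPKM lay between 0 and 1 this held for 95.4%. By that reading 1 fragment in EGFP replicate 1 was worth 0.0433 to 0.145 FPKM, depending on the gene, and 16 receptor genes had at most 13 fragments in every library. Drd2, the Gi-coupled dopamine receptor, had 12 and 4 fragments with EGFP, 3 and 3 with CCNY-WT and 3 and 4 with CCNY-shRNA. Counting error alone gives the 12 fragments an exact Poisson 95% interval of 6.2 to 21 and the 4 fragments one of 1.09 to 10.2. The sums of 16, 6 and 7 fragments had intervals of 9.15 to 26, 2.2 to 13.1 and 2.81 to 14.4 at relative depths of 2.09, 2.26 and 1.97. The higher EGFP mean of Drd2 rested on EGFP replicate 1, and in fragments EGFP replicate 2 equalled the highest library of the other groups. In FPKM both EGFP libraries lay above all others, but EGFP replicate 2 and CCNY-shRNA replicate 1 both rounded to 0.24. Htr1f had 1 and 6, 3 and 1, and 8 and 3 fragments, Chrna3 6 and 4, 11 and 6, and 5 and 7, and Chrnb1 2 and 9, 10 and 6, and 3 and 7. The fragment numbers of the groups overlapped in these 3 genes. In FPKM, which takes depth into account, both other groups overlapped EGFP in Htr1f and Chrnb1. The Chrna3 groups did not overlap in FPKM. EGFP was lowest (0.767 and 0.468), then CCNY-shRNA (0.781 and 0.776), then CCNY-WT (1.06 and 0.823). No test was made on these genes. The fragment numbers also bear on the lowest tested genes, among which Chrm5 had 25 and 24 fragments with EGFP, 26 and 13 with CCNY-WT and 8 and 18 with CCNY-shRNA, and Adra1a had 17 and 9, 13 and 10, and 7 and 10.

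**Figure D5:**
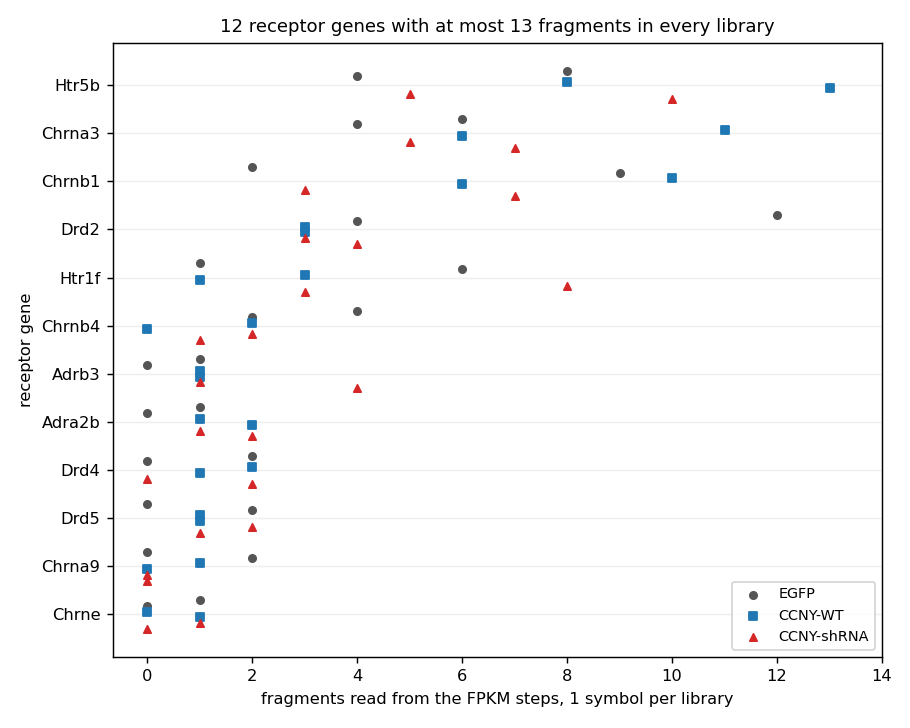
Fragments per library, read from the FPKM steps, for the 12 receptor genes with at most 13 in every library and at least 1 in 2 or more libraries, with 1 symbol per library (circles EGFP, squares CCNY-WT, triangles CCNY-shRNA) on a linear axis. Drd2 shows a single EGFP library at 12 and 5 libraries at 3 or 4.

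Genes around the receptors were counted in 10 lists that cover transmitter handling and receptor signalling, with 115 of 121 genes in the table and 85 tested. In CCNY-shRNA against EGFP 1 was called higher and 0 lower, where 0.746% of all tested genes were called. In both other comparisons 0 were called, where 0.00982% (CCNY-WT against EGFP) and 0.216% (CCNY-shRNA against CCNY-WT) of all tested genes were. At an unadjusted p under 0.05, 3 of the 85 were higher and 9 lower for CCNY-shRNA against EGFP, where 9.2% of all tested genes were higher and 9.36% lower. For CCNY-WT against EGFP 3 were higher and 5 lower, where 3.83% and 3% of all tested genes were. For CCNY-shRNA against CCNY-WT 2 were higher and 8 lower, where 5.05% and 7.12% of all tested genes were. The called gene was Qdpr, which regenerates the tetrahydrobiopterin cofactor of monoamine synthesis, at 88.2 and 80.8 FPKM with EGFP, 87.6 and 93.0 with CCNY-WT and 111 and 112 with CCNY-shRNA (log2 change 0.40, SE 0.0627, limma adjusted p = 0.0439). Qdpr lost the call on leaving out any one library (adjusted p = 0.0556 to 0.279). Spr, an enzyme of the synthesis of the same cofactor, stood at 13.6 and 13.7, 16.9 and 17.4, and 19.7 and 17.4 (log2 change 0.44, SE 0.0962, limma adjusted p = 0.0829). The synthesis enzymes Th, Ddc, Dbh, Tph1, Tph2, Hdc and Chat lay between 0 and 0.57 FPKM in all libraries, so that in this list the genes above 1 FPKM were those of cofactor supply and the vesicle transporters Slc18a1 and Slc18a2.

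In the list of uptake and breakdown 0 of 7 tested genes were called, where 0.746% of all tested genes were for CCNY-shRNA against EGFP. Slc5a7, the choline transporter of cholinergic terminals, stood at 2.24 and 2.28 FPKM with EGFP, 2.41 and 2.13 with CCNY-WT and 1.08 and 1.11 with CCNY-shRNA (log2 change -1.04, SE 0.188, limma adjusted p = 0.0583). It was the one cholinergic marker above 1 FPKM, since Chat and Slc18a3 reached no more than 0.0609 and 0.0573. The plasma membrane transporters of noradrenaline, dopamine and serotonin (Slc6a2, Slc6a3 and Slc6a4) lay between 0 and 0.242 FPKM. The low-affinity monoamine transporter Slc29a4 stood between 64.7 and 73.0, and Maoa, which breaks down monoamines, between 30.7 and 39.2. Both were thus well above 1 FPKM, and the high-affinity carriers were not.

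Signalling lists downstream of the receptors held 0 called genes in any comparison: 0 of 12 tested G protein alpha subunits (median log2 change 0.01 in the knockdown), 0 of 7 adenylyl cyclases (0.01), 0 of 2 phospholipase C beta genes (-0.22), 0 of 5 receptor kinases and arrestins (0.12), 0 of 15 RGS proteins (-0.03), 0 of 19 cyclic AMP effectors and phosphodiesterases (0.03), 0 of 6 potassium channels of the GIRK and M-current families (-0.14) and 0 of 6 nicotinic chaperones and lynx proteins (-0.17). Of all tested genes, 0.746% were called for CCNY-shRNA against EGFP, 0.00982% for CCNY-WT against EGFP and 0.216% for CCNY-shRNA against CCNY-WT. With shares this low, 0 calls in lists of this size say little about these genes. Gnao1, the alpha subunit of Go, was the highest of the G proteins, between 387 and 437 FPKM. Tmem35, a chaperone that nicotinic receptors of the Chrna7 type need to reach the surface, stood between 465 and 491. Rgs10, which speeds GTP hydrolysis by Gi-class subunits, stood at 36.1 and 32.8 with EGFP, 32.6 and 37.4 with CCNY-WT and 24.3 and 24.8 with CCNY-shRNA (log2 change -0.49, SE 0.0884, limma adjusted p = 0.0583). Lypd1, a membrane protein that binds nicotinic receptors, stood at 31.3 and 30.5, 28.2 and 24.4, and 23.3 and 21.2 (log2 change -0.48, SE 0.0937, limma adjusted p = 0.0677). Pde1b, a calmodulin-activated phosphodiesterase, stood at 26.7 and 26.3, 22.9 and 24.0, and 20.6 and 21.8 (log2 change -0.32, SE 0.0767, limma adjusted p = 0.0934). In these 3 genes, picked for their small p-values, both CCNY-shRNA libraries lay below all other libraries, and none passed the adjusted threshold.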

How the data were processed

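The deposited table held FPKM values of 17066 genes, which the authors made by mapping paired-end reads of poly-A RNA to rn4 with TopHat2 (2.0) and Bowtie2 (2.1.0) and estimating levels with Cufflinks (2.2.1), per the submitters' processing notes. No read counts were recoverable, so depth is unknown beyond the relative depths read from FPKM steps. Groups followed the sample titles, and the table had 0 columns outside the 6 libraries. Genes with at least 1 FPKM in 2 or more libraries were tested by limma 3.58.1 in R 4.3.3 (lmFit, contrasts, eBayes with a trend, two-sided) on log2 of FPKM floored to 1, with all 6 libraries in one fit and Benjamini-Hochberg adjustment over all 10188 genes at 0.05. The floor understates changes of low genes. The fit was tested on simulated data. Nothing states that replicates were separate cultures, so p-values measure the spread between these libraries, which may be technical. Receptor genes and gene lists were chosen with earlier results of these data known. All receptor genes enter the counts, and 1 of them and 1 gene of the pathway lists are not reported here by name. Full statistics are given at an unadjusted p under 0.05 and for receptor genes that the study names, and in each pathway list for genes past the threshold and otherwise for up to 4 of those with the smallest p. RefSeq (GRCr8) supplied names (52 of 52 symbols matched), gene overlaps and upstream sequences (40 of 52). The alternatives were other offsets, filters, scalings and spread models, a replicate block, and leaving out each library.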

Additional observations from a re-analysis of the deposited data

How the results depend on the processing

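Across 16 alternative settings, 0 receptor genes were called in any of the 3 comparisons. The 17 receptor gene changes followed were those at an unadjusted p under 0.05 in the main fit. Changes against EGFP of Adrb1, Chrm4, Chrm5 and Hrh3, which the study names, were followed too. All 17 kept their direction in the 272 alternative values. Most were picked for their size in these same libraries, so the kept direction is no separate support. The number lower at an unadjusted p under 0.05 for CCNY-shRNA against EGFP was 5 to 7. The median change of the receptor genes ran from -0.16 to -0.09 in that comparison, from -0.15 to -0.09 in CCNY-WT against EGFP and from -0.15 to -0.04 in CCNY-shRNA against CCNY-WT. The number of calls over all genes was less stable. In CCNY-shRNA against EGFP it was 76, and became 40 with upper quartile scaling, 25 with the 4 libraries of the comparison alone, 8 without a filter, 1 without the trend, 1 without either EGFP library, 18 and 26 without CCNY-WT replicate 1 and 2, and 39 without CCNY-shRNA replicate 2. In CCNY-shRNA against CCNY-WT it was 22, and became 10 without a filter, 8 with 4 libraries or without either EGFP library, and 1 without the trend or without either CCNY-WT library. In CCNY-WT against EGFP the 1 call became 3 with a filter on the mean or with log2(FPKM + 1), and 5 with 4 libraries. The causes were not tested. Deviations of same-numbered libraries from their group means correlated at 0.0377 to 0.0538, so the replicate numbers showed little sign of pairing. With 2 libraries a group, these values cannot exclude cultures shared between same-numbered libraries. With the replicate number as a block, 0 receptor genes were called in each comparison and 7 were lower at an unadjusted p under 0.05 for CCNY-shRNA against EGFP, while the calls over all genes there went from 76 to 39. Qdpr lost its call under the block (adjusted p = 0.0624, from 0.0357 to 0.279 over the 16 settings), and in 11 of these in all, while Gad2 lost its call against EGFP in 7 of 16 (adjusted p = 0.0171 to 0.232) and against CCNY-WT in 6 of 16 (adjusted p = 0.014 to 0.235).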
